A study of Mus musculus with 21 samples.

Results

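The 45 genes described here encode enzymes, transporters and enzyme regulators of glucose metabolism. They were taken as a list of gene names and found by name among the 37074 gene names on the array. By role they fall into 7 gluconeogenic genes, 10 glycogen genes, 3 genes of sugar entry, 13 glycolytic genes, 4 genes of the bifunctional enzyme that makes and removes fructose 2,6-bisphosphate, 4 pyruvate dehydrogenase kinases and 4 genes of the pentose phosphate pathway.

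Expression was measured on 21 arrays in mouse CLiPs (chemically induced liver progenitors), proliferating cells obtained from hepatocytes by culture with small molecules, and in the hepatocytes themselves. Late CLiPs, at passage 11 or 12, and CLiPs at passage 1 (P1) were each sampled in 3 states: after 8 days with hepatic induction by oncostatin M, a cytokine of the interleukin-6 family, and dexamethasone, a synthetic glucocorticoid ("induced"); after 8 days without these agents ("uninduced"); and before those 8 days (day 0). Freshly isolated hepatocytes ("fresh") were the seventh group, and every group held 3 arrays and came from female C57BL/6 mice. The labels do not say whether the arrays of a group came from separate cultures or animals, so a p-value measures the spread between these arrays, which may be technical.

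The liver keeps blood glucose steady. In the fed state it takes glucose up and stores it as glycogen, and in fasting it releases glucose from glycogen and from gluconeogenesis, a pathway that runs glycolysis backwards with its own enzymes at the irreversible steps. Many steps have an isozyme typical of the adult hepatocyte and another found in fetal liver, muscle, brain or proliferating cells, and glucocorticoids are known to raise the transcription of several gluconeogenic genes.

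A level below is the log2 of the scanner's processed signal minus the 75th percentile of the same array, so that 0 is the signal of the probe at that percentile. Levels were compared within a gene only, since probes differ in brightness. Words such as rose, fell or called are used where limma's test gave a Benjamini-Hochberg adjusted p under 0.05 and groups at least 2-fold apart. A gene is called dim in a group where the scanner flagged it as well above background on no array of that group. Its difference is then given as at least so many fold, computed against a floor: on each dim array the gene's own signal or, if higher, the faintest signal that the scanner still flagged as well above background on that array. Of the 45 members, 44 could be tested among the fresh and P1 arrays, of which 35 were well above background on every array of all 4 groups, while Pck1 and Ppp1r3c passed through the fresh arrays alone and Eno2 through the P1 uninduced arrays alone. Fbp2, the muscle fructose bisphosphatase, was well above background on no array.

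The arrays differed in more than their cells. Signal at the 75th percentile was 881 to 1241 on late, 466 to 789 on P1 and 291 to 332 on fresh arrays, and late arrays were read on another scanner with another version of the extraction software, so that in comparisons across late and other arrays passage and scanner cannot be told apart. The labels give passage 11 for replicate 3 of each late group and passage 12 for the others, and the induced late array of passage 11 was also alone on its slide. Replicate 3 of the fresh group carries a P1 passage in the labels and was kept as fresh by its title. Among 9 hepatocyte markers, Cyp2e1 was not well above background on any day 0 array, late or P1, and Cps1 on no late day 0 array. The summed level of 7 stellate and mesenchymal markers, in linear units of the 75th percentile signal, was 47.7 to 110 on P1 induced, 7.87 to 49.3 on P1 uninduced, 13.4 to 33.7 on P1 day 0 and 3.82 to 10.6 on fresh arrays, and 0.208 to 0.572 on late arrays. Lrat was well above background on no P1 and no late array. The P1 induced sum was dominated by Dcn (mean levels 5.95 induced, 3.41 uninduced). Col1a2 (3.19, 2.25), Col1a1 (2.16, 1.21) and Des (-2.96, -3.32) were also higher on P1 induced than uninduced arrays. Pdgfrb (-1.82, -1.5) and Reln (-3.64, 0.45), dim on P1 induced arrays, were lower. The hepatocyte markers summed to 950 to 1210 on P1 day 0 and 4460 to 5120 on fresh arrays, 6 bile duct and progenitor markers to 438 to 465 and 1.01 to 1.78, 6 macrophage markers to 0.766 to 0.809 and 3.99 to 19.1, and 5 genes of dividing cells to 84 to 98.5 and 1.13 to 2.35. The hepatocyte sum at P1 day 0 came mostly from Serpina1a and Alb. In mean levels Serpina1a (9.13 at P1 day 0, 10.47 fresh) and Alb (8.22, 9.67) were lower by less than Asgr1 (-2.19, 7.55) and Tat (-0.76, 7.26). The part of these shifts in the results below was not tested.

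The study's first comparison asks what the conversion of hepatocytes to progenitors did. Of 44 tested members, 13 rose and 19 fell in P1 CLiPs at day 0 relative to fresh hepatocytes, a share of 29.5% and 43.2%, against 25.4% and 25.2% of the 20631 genes tested. The median member differed by -0.78 on the log2 scale and the median of all tested genes by -0.01. Liver forms such as Gys2, Pygl and Slc2a2 were among those that fell, and their counterparts Gys1, Pygb and Slc2a1 among those that rose. In bulk RNA, fewer cells with a transcript and less of it per cell cannot be told apart.

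All gluconeogenic genes that could be tested changed, 5 of 6 downward. Pck1 encodes the cytosolic phosphoenolpyruvate carboxykinase, the enzyme taken as the gatekeeper of gluconeogenesis. Its level was -6.27, -5.38 and -5.15 on the P1 day 0 arrays, against 7.78, 8.46 and 7.55 on the fresh arrays. No P1 day 0 array was well above background, and the fall was at least 3600-fold (adjusted p = 1.9e-08). Fbp1, the liver fructose bisphosphatase, stood at -3.18, -3.74 and -2.41 in P1 day 0 cells, with 2 of the 3 arrays well above background, against 9.62, 9.95 and 9.88 in fresh cells, a 7800-fold fall (adjusted p = 3.2e-11). G6pc, the catalytic subunit of glucose 6-phosphatase, gave -2.82, -2.94 and -3.07 at P1 day 0, against 4.92, 7.49 and 6.44 in fresh hepatocytes, and was 598-fold lower (adjusted p = 2.7e-08). For all 3 genes the groups lay far apart, although the fresh arrays themselves spread over more than 2 log2 units for G6pc.

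Pcx, the mitochondrial pyruvate carboxylase, averaged 1.8 ± 0.39 at P1 day 0 and 6.88 ± 0.13 in fresh cells (SD, n = 3 each), a 33.9-fold fall. Slc37a4, the transporter that brings glucose 6-phosphate to glucose 6-phosphatase in the endoplasmic reticulum, averaged 2.96 ± 0.1 at P1 day 0 and 6.59 ± 0.11 in fresh cells (SD, n = 3 each) and fell by 3.64 on the log2 scale. A second, dimmer probe of Slc37a4 differed by 1.17, in the opposite direction. Pck2 makes the mitochondrial form of the carboxykinase and went the other way from Pck1. It was at 3.15, 3.17 and 3.16 on P1 day 0 arrays, against 0.11, 0.09 and 0.14 on fresh arrays, an 8.28-fold rise (adjusted p = 2.5e-09).

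**Figure D1:**
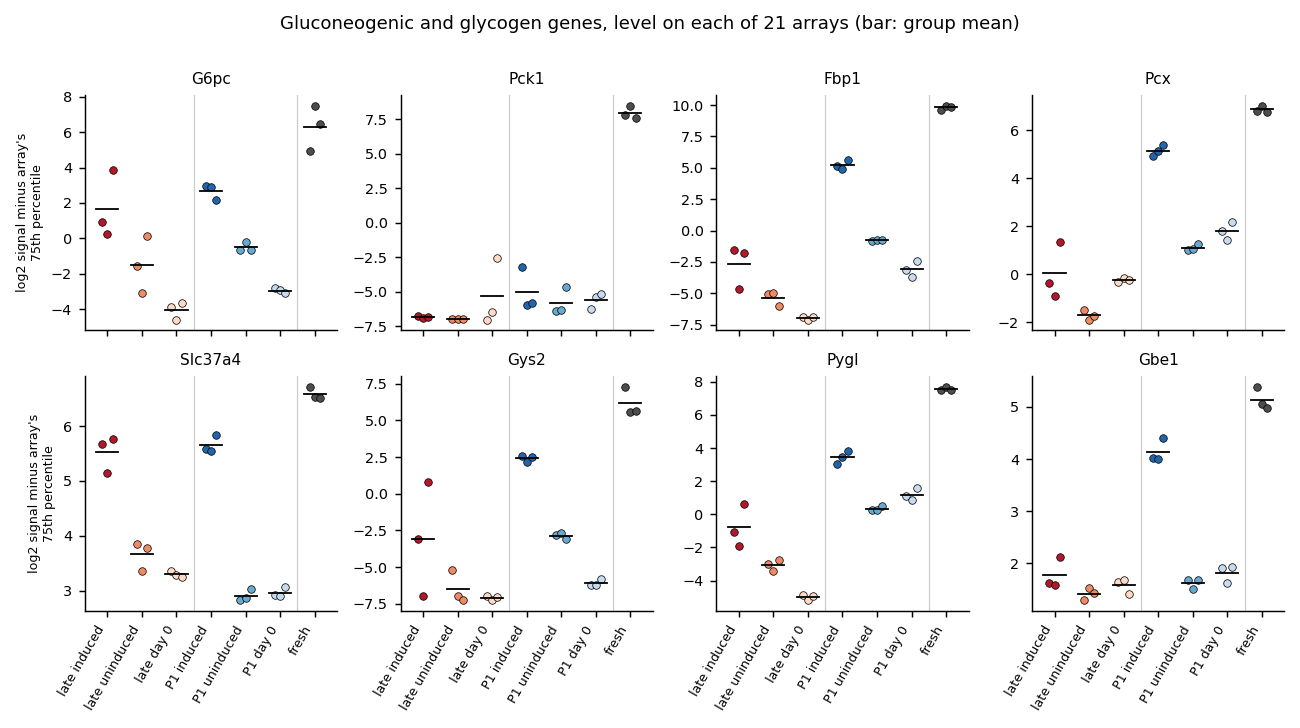
Levels of 5 gluconeogenic and 3 glycogen genes on each of 21 arrays (points) with the mean of each group of 3 (bars); the vertical axis is the log2 processed signal minus the array's 75th percentile and differs between panels. All 8 genes are highest in fresh hepatocytes; all but Pck1 are higher on every P1 induced than on every P1 uninduced array, and Pck1 is low in all cultured groups.

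Every glycogen gene among the members changed on conversion, 7 downward and 3 upward. Gys2, the liver glycogen synthase, was at -6.20, -6.20 and -5.83 on P1 day 0 arrays, none of them well above background, against 7.29, 5.57 and 5.61 on fresh arrays, a fall of at least 1060-fold (adjusted p = 3.8e-10). Gys1, the synthase of muscle and most other tissues, was at 0.62, 0.67 and 0.61 at P1 day 0, against -1.93, -1.41 and -1.24 in fresh cells, a 4.48-fold rise (adjusted p = 2.9e-06). The phosphorylases, which break glycogen down, showed the same split between isozymes. Pygl, the liver form, stood at 1.11, 0.87 and 1.57 on P1 day 0 arrays, against 7.53, 7.71 and 7.5 on fresh arrays, and fell 84.1-fold. Pygb, the brain form, averaged 0.96 ± 0.23 at P1 day 0 and -3.0 ± 0.34 in fresh cells (SD, n = 3 each) and rose 15.6-fold, with 1 of 3 fresh arrays well above background.

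The branching enzyme Gbe1 fell 9.95-fold and Ugp2, which makes UDP-glucose, 6.24-fold. The files' names Pgm1 and Pgm2 are exchanged relative to the reference: the probe named Pgm2 carries the accession of the main phosphoglucomutase, Pgm1 in RefSeq, and fell 5.97-fold, while the probe named Pgm1 carries that of RefSeq Pgm2 and rose 4.99-fold. Of the subunits that bring protein phosphatase 1 to glycogen, Ppp1r3b averaged 5.3 ± 0.1 at P1 day 0 and 7.13 ± 0.42 in fresh cells (SD, n = 3 each), a 3.56-fold fall, and Ppp1r3c fell at least 126-fold. Among 16 other tested glycogen genes, listed from general knowledge, 2 rose and 9 fell. Ppp1r3g, a phosphatase subunit that was dim at P1 day 0, fell at least 53.2-fold, and Ppp1r3d, another subunit, which was dim on the fresh arrays, rose at least 2.06-fold.

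Sugar entry changed in all 3 genes. Slc2a2, the glucose transporter of hepatocytes and pancreatic beta cells, was at -2.94, -2.94 and -2.97 on P1 day 0 arrays, against 3.43, 2.95 and 2.81 on fresh arrays, and fell 64.6-fold (adjusted p = 1e-09). Khk, ketohexokinase, which commits fructose to metabolism, averaged 1.99 ± 0.04 at P1 day 0 and 8.02 ± 0.03 in fresh cells (SD, n = 3 each) and fell 65.2-fold. Slc2a1, the transporter of most proliferating cells, was at 4.87, 4.69 and 4.62 in P1 day 0 cells, against 0.91, 2.12 and 2.54 in fresh cells, a 7.32-fold rise (adjusted p = 1.6e-05). The groups did not overlap for any of the 3.

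Glycolysis itself moved less: 2 of 13 genes rose and 1 fell. Pfkp, the platelet form of phosphofructokinase, stood at 2.5, 2.48 and 2.14 on P1 day 0 arrays, against -2.91, -4.37 and -3.07 on fresh arrays, and rose by 5.82 on the log2 scale with this probe and by 1.98 to 5.82 over 4 measured probes. Pfkl, the liver form, differed by -0.50 with the probe shown and by 1.35 with its second probe, and Pfkm, the muscle form, by -0.41; none of these was called as shown. Ldhb, the lactate dehydrogenase subunit of heart, was at 3.30, 3.65 and 3.57 on P1 day 0 arrays, against -0.71, -1.19 and -0.92 on fresh arrays, and rose 21.8-fold (adjusted p = 9.9e-10). Ldha, the subunit of muscle and liver, differed by -0.73. Eno3, the muscle enolase, fell 3.31-fold. Of the other members, Gpi1, Tpi1, Gapdh, Pgk1, Pgam1, Eno1 and Eno2 differed by -0.99 to 0.71 and were not called. Tpi1, at -0.99, and Pgk1, at -0.97, lay just under the 2-fold limit and passed it without fresh replicate 1, at -1.19 and -1.02. As means of their probes both were called lower, at -1.1 (adjusted p = 0.00015) and -1.29 (adjusted p = 6.5e-06).

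Genes of other glycolytic steps ran both ways. Of 10 genes listed for hexokinase, aldolase and pyruvate kinase, 3 rose and 6 fell. Pkm, the pyruvate kinase of muscle and proliferating cells, rose by 7.66 on the log2 scale, Aldoa by 1.64, and Hk2, dim on the fresh arrays, at least 15.2-fold. Forms typical of other tissues also fell or were not called: Hk3 differed by -1.88, Aldoc, the brain aldolase, by -1.86 and Hk1 by 0.20 (not called). Gckr, a regulatory protein of the liver, differed by -8.27, and Pklr, the pyruvate kinase of liver and red cells, by -2.50.

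**Figure D2:**
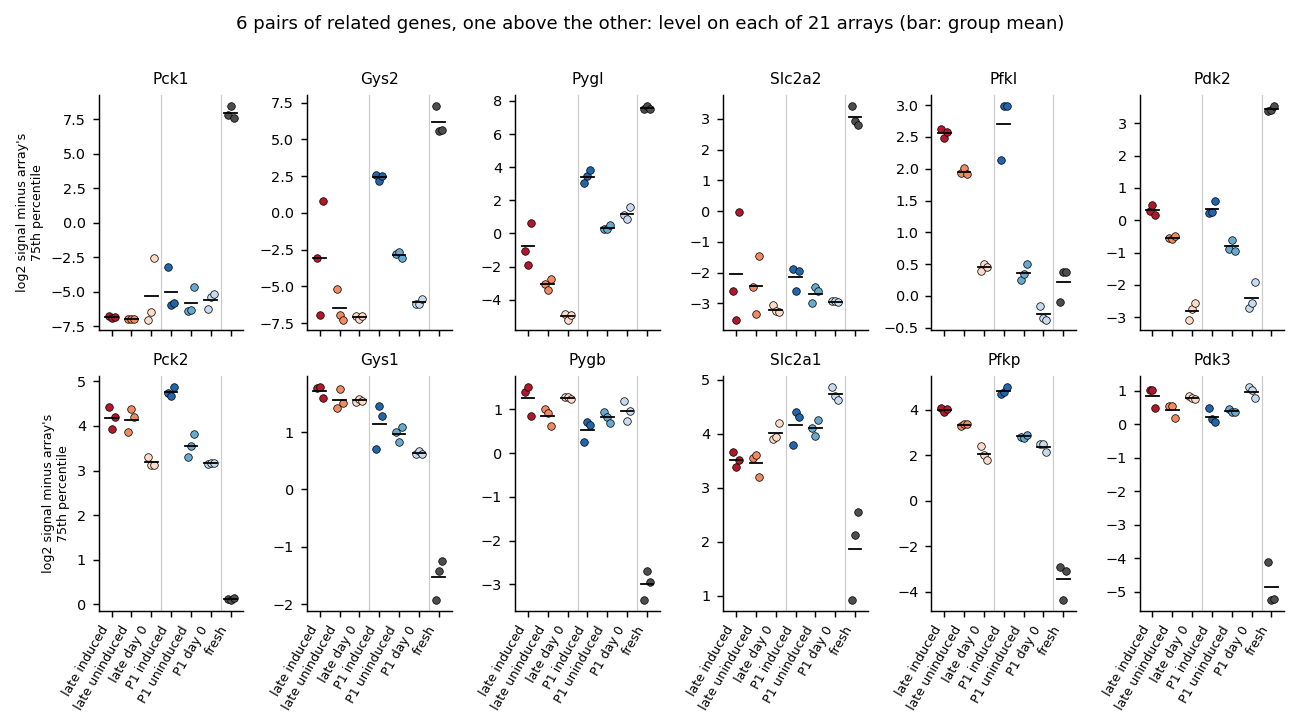
Levels of 6 pairs of related genes on each of 21 arrays (points) with group means (bars); the vertical axis is the log2 processed signal minus the array's 75th percentile and differs between panels. In 5 pairs the upper gene fell and the lower gene rose at P1 day 0 relative to fresh hepatocytes; in the pair of Pfkl and Pfkp the lower gene rose and the upper one was not called.

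The enzyme family that sets fructose 2,6-bisphosphate, an activator of phosphofructokinase and an inhibitor of fructose bisphosphatase, passed in all 4 genes with the probes shown. Pfkfb1, the liver form, averaged 0.47 ± 0.05 at P1 day 0 and 3.0 ± 0.54 in fresh cells (SD, n = 3 each), a 5.78-fold fall. Pfkfb4 rose 3.13-fold with the probe shown, and differed by 0.53 with normexp background correction and 0.54 as the mean of its probes, both under 2-fold. Pfkfb2 rose 2.8-fold with the probe shown, while its probes ranged from -0.10 to 1.48. Pfkfb3, the form induced by hypoxia and growth signals, gave 1.59, 1.63 and 1.75 at P1 day 0, against 1.25, 0.02 and -2.88 on the fresh arrays. Its rise by 2.19 on the log2 scale (adjusted p = 0.026) rests on fresh arrays that differ more among themselves than the groups do, and the adjusted p reached 0.061 when single P1 day 0 arrays were left out.

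The pyruvate dehydrogenase kinases, which block the entry of pyruvate into the citric acid cycle, split 3 to 1. Pdk2 averaged -2.39 ± 0.42 at P1 day 0 and 3.44 ± 0.08 in fresh cells (SD, n = 3 each), a 56.8-fold fall, and Pdk1 fell 11.5-fold. Pdk3, not well above background on any fresh array, averaged 0.97 ± 0.17 at P1 day 0 and rose at least 19.1-fold (adjusted p = 5.6e-09). Pdk4, the form raised by fasting, was at -2.49, -2.63 and -2.70 on P1 day 0 arrays, against -2.85, 1.16 and 1.91 on fresh arrays. Its fall (adjusted p = 0.022) was the 1 called conversion difference among the members with overlapping groups, and it was lost, with an adjusted p of up to 0.091, when fresh replicate 2, fresh replicate 3 or P1 day 0 replicate 3 was left out.

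In the pentose phosphate pathway, which supplies NADPH and ribose phosphate, both NADPH-producing dehydrogenases rose. G6pdx was at 3.99, 4.11 and 4.07 on P1 day 0 arrays, against 1.02, 0.37 and 1.41 on fresh arrays, an 8.71-fold rise (adjusted p = 4.7e-07). Pgd averaged 4.72 ± 0.08 at P1 day 0 and 2.92 ± 0.12 in fresh cells (SD, n = 3 each), a 3.48-fold rise with the brightest probe; the mean of its 3 probes differed by 0.54 (adjusted p = 0.14). The enzymes of the non-oxidative branch were not called: transketolase, Tkt, differed by 0.95 and transaldolase, Taldo1, by -0.10.

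Culture for 8 days without inducers answers what time and culture alone did to P1 cells. In uninduced P1 cells, 6 of 44 members rose and 1 fell relative to day 0, against 6.28% and 4.86% of all tested genes. G6pc was at -0.66, -0.22 and -0.63 on uninduced arrays, against -2.82, -2.94 and -3.07 at day 0, a 5.44-fold rise (adjusted p = 0.0038). Fbp1 rose 5.09-fold, and Gys2, at -2.81, -2.66 and -3.10 on uninduced arrays, against a dim -6.20, -6.20 and -5.83 at day 0, at least 2.04-fold. The kinase genes Pdk1 and Pdk2 rose 2.08-fold and 2.98-fold, with Pdk1 probes between -0.09 and 1.64 on the log2 scale, and Eno2, the neuronal enolase, 3.01-fold. Eno2 had entered the test through the uninduced arrays alone, and normexp gave it 0.83, under 2-fold. Pfkfb1 fell 2.87-fold. The 5 genes of dividing cells summed to 5.76 to 8.65 on uninduced and 84 to 98.5 on day 0 arrays, and their part in these changes was not tested. Pdk4 stood at 0.01, 0.00 and -0.39 on uninduced arrays, against -2.49, -2.63 and -2.70 at day 0. The difference of 2.48 was not called (adjusted p = 0.062) and passed with the slide as a random block (adjusted p = 0.0093). The groups of a fit share an estimate of the spread. The SD of Pdk4 was 2.56 on fresh, 0.23 on P1 uninduced and 0.1 on P1 day 0 arrays. On slide 5 alone, with 1 array per group, the test called 1 rise, and on slide 4 alone 6 rises and 2 falls.

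Hepatic induction asks whether oncostatin M and dexamethasone restore hepatic expression. In P1 cells, 21 of 44 tested members rose and 1 fell, a share of 47.7% and 2.27%, against 9.68% and 9.02% of all tested genes. The median difference was 1.11 on the log2 scale for the members and 0.05 for all tested genes. Marker sums, in units of the 75th percentile signal, moved beside this. The 9 hepatocyte markers summed to 1360 to 1660 on P1 induced and 911 to 997 on P1 uninduced arrays. The 6 bile duct and progenitor markers summed to 691 to 813 and 474 to 508, a sum dominated by Spp1 (mean levels 9.41 and 8.4). In group means Krt19 (2.73 induced, 5.74 uninduced), Krt7 (1.41, 3.78) and Epcam (0.12, 2.27) were lower on induced arrays. So were Cd24a (5.54, 6.28) and Sox9 (2.07, 2.37), by less. The part of these markers in the result was not tested. Within slide 4 alone 21 members rose and 1 fell, and within slide 5 alone 22 rose and 2 fell. Rises covered gluconeogenesis (5 of 6), glycogen metabolism (5 of 10) and glycolysis (7 of 13), so that genes of opposing pathways rose in the same cultures.

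Fbp1 had the largest rise of any member. It stood at 5.15, 4.92 and 5.59 on P1 induced arrays, against -0.80, -0.73 and -0.77 on uninduced arrays, 63.5-fold higher (adjusted p = 1.2e-07). Pcx, which feeds pyruvate into gluconeogenesis, was at 4.92, 5.13 and 5.40 on induced arrays, against 1.0, 1.05 and 1.28 on uninduced arrays, 16.5-fold higher (adjusted p = 1.2e-07). G6pc gave 2.96, 2.91 and 2.19 on induced arrays, against -0.66, -0.22 and -0.63 on uninduced arrays, and rose 9.1-fold (adjusted p = 0.00046). The transporter that serves it, Slc37a4, rose 6.77-fold and Pck2 2.3-fold.

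Pck1 did not follow the other gluconeogenic genes. Its level was -3.24, -5.99 and -5.79 on P1 induced arrays, against -6.39, -6.36 and -4.70 on uninduced arrays, with 1 induced array and no uninduced array well above background. The difference of 0.81 had a standard error of 0.707 (adjusted p = 0.39). Replicate 1 of the induced arrays was the high one, and on its slide, slide 4, the test gave 3.13 (adjusted p = 0.012) from that 1 array against 2.

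Among the glycogen genes, Gys2 was at 2.58, 2.14 and 2.51 on P1 induced arrays, against -2.81, -2.66 and -3.10 on uninduced arrays, 38.6-fold higher (adjusted p = 1.9e-06). Pygl gave 3.04, 3.45 and 3.81 on induced arrays, against 0.26, 0.25 and 0.53 on uninduced arrays, and rose 8.51-fold. Both the liver synthase, which makes glycogen, and the liver phosphorylase, which breaks it down, rose. Gbe1 rose 5.73-fold, the gene that the files name Pgm2 3.37-fold and Ugp2 2.08-fold, the last by 0.91 with quantile normalization and 0.96 with normexp, under 2-fold. The isozymes typical of other tissues were not called: Gys1 differed by 0.17, Pygb by -0.29 and the gene that the files name Pgm1 by -0.15. The phosphatase subunits Ppp1r3b, at 0.39, and Ppp1r3c, at 1.64 (adjusted p = 0.096), were not called either. For sugar entry, Khk rose 7.09-fold, while the transporters Slc2a1 and Slc2a2 differed by 0.06 and 0.55 and were not called.

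Of the 13 glycolytic members, 7 rose, while no enolase gene and not Gapdh passed with the probe shown. Pgk1, phosphoglycerate kinase, was at 8.87, 9.09 and 9.34 on P1 induced arrays, against 7.08, 6.87 and 7.29 on uninduced arrays, 4.05-fold higher (adjusted p = 1.5e-06). Pfkl gave 2.14, 2.98 and 2.99 on induced arrays, against 0.25, 0.34 and 0.51 on uninduced arrays, and rose 5.05-fold, and Pfkp rose 4.02-fold. Induced and uninduced arrays did not overlap for any of these. Tpi1, triose phosphate isomerase, rose 2.84-fold with the probe shown and ranged from -0.01 to 1.75 on the log2 scale over its 4 probes. Pgam1, phosphoglycerate mutase, rose 2.79-fold, Ldha 2.49-fold and Gpi1, the glucose phosphate isomerase, 2.42-fold; with quantile normalization Ldha differed by 0.81 and Gpi1 by 0.79, under the 2-fold limit. Eno1, the common enolase, differed by 0.94 (adjusted p = 3.1e-05) and Gapdh by 0.60 with the probe shown, and the means over their probes differed by 1.02 and 1.31. The members Pfkm, Eno2, Eno3 and Ldhb were not called, at -0.08, -0.79, 0.71 and -0.78.

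Among the regulators, Pfkfb1 rose 2.47-fold, to 0.33, -0.01 and 0.43 on induced arrays, against -1.10, -1.29 and -0.78 on uninduced arrays. Pfkfb3 stood at 2.93, 3.81 and 4.03 on induced arrays, against 1.90, 2.13 and 2.31 on uninduced arrays, groups that did not overlap. The difference of 1.48 was not called (adjusted p = 0.16). The fit's shared estimate of the spread includes the fresh arrays. The SD of Pfkfb3 was 2.12 on fresh, 0.58 on P1 induced and 0.2 on P1 uninduced arrays. On slide 5 alone its difference between induced and uninduced arrays was 1.61. Pdk1 rose 5.27-fold, with probes between 0.42 and 2.41 on the log2 scale, and Pdk2 2.23-fold. Pdk3 and Pdk4 were not called, at -0.16 and 0.50. G6pdx was the single member that fell. It was at 1.54, 1.49 and 1.98 on P1 induced arrays, against 3.29, 3.29 and 3.73 on uninduced arrays, 3.4-fold lower (adjusted p = 0.00017). The other pentose phosphate genes Pgd, Tkt and Taldo1 differed by -0.02 to 0.37.

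Genes around these pathways moved to different extents in the same comparison, in which 9.68% of all tested genes rose and 9.02% fell. Of the 10 genes for hexokinase, aldolase and pyruvate kinase, 6 rose and 0 fell, among them Gckr by 4.13 on the log2 scale, Aldoc by 2.74, Hk2 by 1.89 and Pklr by 1.02. Among 24 regulators of sugar metabolism, 12 rose and 1 fell. Trib3, a stress-induced pseudokinase, rose by 3.17, Creb3l3, a liver transcription factor, by 2.92, the glucagon receptor Gcgr by 2.22 and Cebpa by 1.56, and the coactivator Ppargc1a, well above background on 2 of 3 induced arrays, fell by 1.61. Of 12 hypoxia-responsive genes outside glycolysis, 9 rose and 0 fell, led by Egln3 at 3.82, Ndrg1 at 3.77, Bnip3 at 3.31 and P4ha2 at 2.43. Further lists had smaller shares of rises. Of 20 other glycolysis and pyruvate enzymes, 4 rose and 2 fell, and of 16 other glycogen genes 3 rose and 0 fell. Of 11 other pentose phosphate, fructose or galactose genes, 4 rose and 2 fell. Of 9 other sugar and lactate transporters, 2 rose and 1 fell, and Slc16a3, an exporter of lactate, rose by 5.58. These lists are described by their counts and were not tested as sets.

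The sequences in front of genes that moved apart are shown for Pck1, G6pc and Fbp1, and of genes that rose together for Pgk1, Pgam1 and Ldha. Each is the 250 bases before the transcript start in RefSeq on GRCm38.p6, 5′ to 3′ in the direction of the gene, with capitals for matches on either strand to ACGTG (the core of the site for hypoxia-inducible factors), TGACGTCA, TTACGTCA and TGACG (the cAMP response element, a variant and its core), TGTTCT (a single arm of the glucocorticoid receptor's site), TTCCNGGAA (a STAT3 site), CAAAGTCCA (an HNF4A site) and CACGTG (an E-box). CACGTG contains ACGTG, TGACGTCA contains TGACG on both strands and TTACGTCA contains it on the opposite strand. The windows lie at chr2:173152823-173153072 on the plus strand for Pck1, chr11:101367466-101367715 on the plus strand for G6pc, chr13:62888283-62888532 on the minus strand for Fbp1, chrX:106186850-106187099 on the plus strand for Pgk1, chr19:41911621-41911870 on the plus strand for Pgam1 and chr7:46845554-46845803 on the plus strand for Ldha, the first of its 2 listed starts.
Pck1: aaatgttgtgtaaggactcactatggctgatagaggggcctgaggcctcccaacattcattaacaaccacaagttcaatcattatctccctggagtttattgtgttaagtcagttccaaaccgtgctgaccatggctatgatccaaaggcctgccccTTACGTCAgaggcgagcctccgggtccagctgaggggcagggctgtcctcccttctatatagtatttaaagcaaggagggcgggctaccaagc
G6pc: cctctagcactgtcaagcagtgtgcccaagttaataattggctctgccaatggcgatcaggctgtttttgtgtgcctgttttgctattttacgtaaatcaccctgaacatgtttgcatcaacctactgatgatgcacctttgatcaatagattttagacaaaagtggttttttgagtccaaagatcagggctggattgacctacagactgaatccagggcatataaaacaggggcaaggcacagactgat
Fbp1: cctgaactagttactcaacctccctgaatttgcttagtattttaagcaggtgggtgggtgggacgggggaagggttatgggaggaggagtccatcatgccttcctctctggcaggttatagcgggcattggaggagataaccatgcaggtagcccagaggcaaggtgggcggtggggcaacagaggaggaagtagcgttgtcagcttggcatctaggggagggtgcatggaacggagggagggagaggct
Pgk1: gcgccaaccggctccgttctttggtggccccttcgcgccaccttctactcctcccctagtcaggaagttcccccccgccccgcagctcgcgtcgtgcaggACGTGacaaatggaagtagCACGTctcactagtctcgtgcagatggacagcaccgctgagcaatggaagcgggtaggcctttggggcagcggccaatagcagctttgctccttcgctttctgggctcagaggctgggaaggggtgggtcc
Pgam1: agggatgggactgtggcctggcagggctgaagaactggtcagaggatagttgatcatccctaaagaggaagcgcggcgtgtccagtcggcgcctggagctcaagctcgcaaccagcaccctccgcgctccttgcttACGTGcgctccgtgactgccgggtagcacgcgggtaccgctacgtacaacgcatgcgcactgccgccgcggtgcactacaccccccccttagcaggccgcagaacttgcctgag
Ldha: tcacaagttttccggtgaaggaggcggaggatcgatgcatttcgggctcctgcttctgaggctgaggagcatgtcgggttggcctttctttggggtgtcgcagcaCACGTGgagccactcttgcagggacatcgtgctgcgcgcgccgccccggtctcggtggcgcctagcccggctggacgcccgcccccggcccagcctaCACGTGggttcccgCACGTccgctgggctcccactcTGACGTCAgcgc

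Pck1 holds a single TTACGTCA, 93 bases before the start, which 0.525% of the 27025 genes with a listed promoter also hold. No searched motif lies in the windows of G6pc and Fbp1, which says only that these letters are absent from these 250 bases. The core ACGTG occurs in Pgk1 on both strands, 150 and 131 bases before the start, and in Pgam1 114 bases before it. Ldha holds CACGTG 145 and 48 bases before the start, a further ACGTG 34 bases before it and the palindrome TGACGTCA 12 bases before it. Promoter windows were listed for 43 members, and the core ACGTG was found in 41.9% of them and in 18.5% of all genes. It was present in 9 of the 20 listed members that rose on P1 induction. TGACG was found in 25.6% of members and 19.8% of all genes, TGTTCT in 16.3% and 18.2%, CACGTG in 20.9% and 6.86%, and TGACGTCA in 2.33% and 1.77%. No member window held TTCCNGGAA or CAAAGTCCA, which 1.09% and 0.451% of all genes hold. These are letters in a window, with no measurement of binding.

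What was left between P1 induced cells and fresh hepatocytes was measured directly. Of 44 tested members, 16 were higher and 13 lower in P1 induced cells, against 20.3% and 18.8% of all tested genes. This comparison shares its arrays with the conversion and induction comparisons above and is given for its own values. Pck1 was well above background on 1 of 3 P1 induced arrays, and its difference of -12.93 on the log2 scale rests in part on background signal. Ppp1r3c, well above background on 2 of 3 P1 induced arrays, at -3.28, -3.66 and -2.98 on P1 induced arrays, against 2.76, 2.28 and 4.21 on fresh arrays, was 84.0-fold lower. Slc2a2 was 37.0-fold lower, Fbp1 24.2-fold, Pygl 17.7-fold, Gys2 13.4-fold, G6pc 12.1-fold, Khk 9.04-fold and Pdk2 8.54-fold. Smaller gaps remained for Pfkfb1 (6.72-fold lower), Ppp1r3b (3.82-fold), Pcx (3.32-fold) and Ugp2 (3.25-fold).

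Some members lay within 2-fold of fresh cells. Slc37a4 differed by -0.93, Gbe1 by -0.99, the gene that the files name Pgm2 by -0.83 and Pdk1 by -0.06. The first 3 were lower without a minimum fold (adjusted p = 2e-05, 0.00013 and 7.7e-05). Gbe1 was called lower with the slide as a random block, at -1.01, and at -1.12 to -1.04 when any of 3 arrays was left out. Slc37a4 was called lower without P1 induced replicate 3, at -1.02. On the other side, the isozymes that had come up with conversion stayed high. Pfkp was at 4.69, 4.79 and 5.01 on P1 induced arrays, against -2.91, -4.37 and -3.07 on fresh arrays, 310-fold higher with this probe and 3.24 to 8.28 log2 units over its 5 probes. Pck2 was 25.1-fold higher, Ldhb 20.1-fold, Pygb 11.6-fold and Gys1 6.37-fold, and Pdk3 at least 11.5-fold. Slc2a1 was 4.95-fold higher, Pfkfb3 17.5-fold, Pfkfb4 5.58-fold, Pfkfb2 2.93-fold, the gene that the files name Pgm1 3.39-fold and Pgd 2.22-fold. Pfkl (5.62-fold), Pgam1 (2.33-fold), Gpi1 (2.24-fold) and Eno2 (at least 1.39-fold) were above fresh cells after induction. Eno2 differed by 0.09 (adjusted p = 0.52) with normexp, and Pgd by 0.26 (adjusted p = 0.48) as the mean of its probes. G6pdx, by contrast, differed from fresh cells by 0.74. Pdk4 differed by 0.30 (not called), and by -1.16 (adjusted p = 0.0034) without fresh replicate 1.

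**Figure D3:**
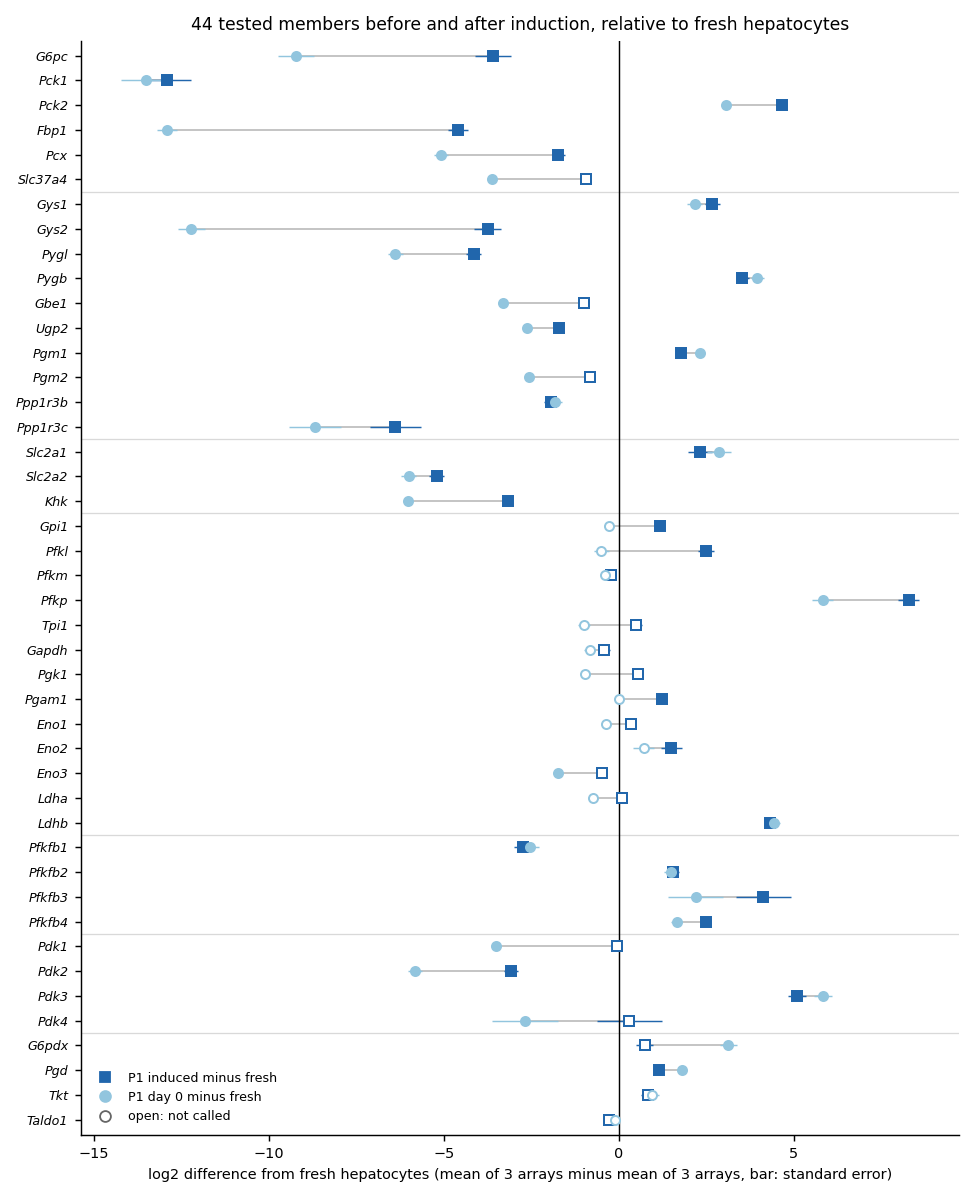
Log2 difference from fresh hepatocytes of 44 tested members in P1 induced cells (dark squares) and P1 day 0 cells (light circles), each the mean of 3 arrays minus the mean of 3 fresh arrays with its standard error; filled symbols are called and open symbols are not, and horizontal lines part the roles. Gys2, dim at P1 day 0, and Fbp1 lay closer to fresh cells after induction than before it, Pck1 was low in both states at signals near background, and Pfkp, Pck2 and Pfkl lay further above fresh cells after induction.

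In late cells, 8 days of culture without inducers raised 7 and lowered 3 of 41 tested members relative to late day 0, against 8.19% and 6.37% of the 21342 genes tested on late arrays. The 5 genes of dividing cells summed to 10.5 to 13.9 on late uninduced and 102 to 110 on late day 0 arrays, the 9 hepatocyte markers to 329 to 439 and 76.7 to 187, and their part in these changes was not tested. Pck1, Fbp1, Fbp2 and Gys2 could not be tested there, since no late group had them well above background on all arrays. Pdk2 was at -0.56, -0.58 and -0.50 on late uninduced arrays, against -3.07, -2.76 and -2.57 at late day 0, a 4.76-fold rise (adjusted p = 1.5e-05). Pdk1 rose 4.04-fold, with probes between 0.05 and 2.31 on the log2 scale, and Pdk4 3.46-fold. The Pdk4 call was lost in a fit of all 21 arrays (adjusted p = 0.072) and with the values of the authors' deposited table (adjusted p = 0.17). That fit shares its estimate of the spread with the fresh arrays. The SD of Pdk4 was 2.56 on fresh, 0.25 on late uninduced and 0.01 on late day 0 arrays. Ppp1r3c stood at 0.69, -0.17 and -1.08 on late uninduced arrays, against -3.77, -5.04 and -3.17 at late day 0, and rose 14.0-fold (adjusted p = 0.00083).

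The phosphofructokinases rose as well, Pfkl 2.82-fold (0.77 and 1.5 on the log2 scale with its probes) and Pfkp 2.42-fold. Pygl, dim on all late day 0 arrays, rose at least 3.3-fold (adjusted p = 0.021), a call that was lost when any of 4 arrays was left out and with normexp, at 0.83 (adjusted p = 0.15). Pcx fell 2.79-fold, Pfkfb1 2.64-fold and Pgd 2.12-fold, the last with probes between -1.09 and -0.33 on the log2 scale. The means over probes, 0.92 for Pfkl and -0.59 for Pgd, were under 2-fold. The Pcx call had an adjusted p of 0.039 and of up to 0.1 when any 1 of the 6 arrays was left out. G6pc differed by 2.53 (adjusted p = 0.083) and passed when replicate numbers were blocked (adjusted p = 0.011). Among the hypoxia-responsive genes 8 of 12 rose, among 24 regulators of sugar metabolism 6, and among 8 tested sugar and lactate transporters 2, with Slc16a3 at 5.25. Rises numbered 1 each among 10 genes for hexokinase, aldolase and pyruvate kinase, 18 other glycolysis and pyruvate enzymes and 16 other glycogen genes. Among 11 other pentose phosphate, fructose or galactose genes, 1 rose and 2 fell.

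Induction of late cells raised 5 of 41 tested members and lowered 0, against 2.94% and 3.06% of all tested genes; at an unadjusted p under 0.05 the count of falls was also 0, and it was 0 under every other setting run. The 9 hepatocyte markers summed to 420 to 750 on late induced and 329 to 439 on late uninduced arrays, and their part was not tested. In mean levels Alb (5.27 induced, 5.76 uninduced) and Cyp2e1 (-4.99, -4.85), dim on late induced arrays, were lower. The other markers of this list, among them Serpina1a (8.02, 7.74) and Ttr (7.26, 6.44), were higher. With passage 12 arrays alone the count was again 5, and it ranged from 3 to 8 when single arrays were left out. Slc37a4 was at 5.67, 5.14 and 5.76 on late induced arrays, against 3.85, 3.36 and 3.78 on late uninduced arrays, 3.62-fold higher (adjusted p = 0.0007), while its second probe differed by 0.86. Pdk4 gave 2.47, 2.49 and 1.87 on late induced arrays, against 0.49, 0.11 and 0.02 on late uninduced arrays, and rose 4.21-fold (adjusted p = 0.00042). Pfkfb3 gave 2.83, 2.78 and 3.05 on late induced arrays, against 1.52, 1.77 and 1.31 on late uninduced arrays, and rose 2.56-fold (adjusted p = 0.00074). In a fit of all 21 arrays both calls were lost (adjusted p = 0.074 for Pdk4 and 0.17 for Pfkfb3). They were also lost with the values of the authors' deposited table (adjusted p = 0.2 and 0.31). The groups of a fit share an estimate of the spread, and the 21 arrays include the fresh arrays. For Pdk4 the SD was 2.56 on fresh, 0.35 on late induced and 0.25 on late uninduced arrays. For Pfkfb3 it was 2.12, 0.14 and 0.23.

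Pygl and Pcx also passed, with arrays that differed widely. Pygl was at -1.09, -1.89 and 0.62 on late induced arrays, against -3.03, -3.42 and -2.74 on uninduced arrays, 4.84-fold higher (adjusted p = 0.025). Pcx was at -0.36, -0.88 and 1.36 on late induced arrays, against -1.47, -1.88 and -1.74 on uninduced arrays, 3.34-fold higher (adjusted p = 0.043). In both, the array of passage 11, replicate 3, was the high one, both calls were lost when late induced replicate 1 or any late uninduced array was left out (adjusted p up to 0.079 for Pygl and 0.12 for Pcx) and without the filter on dim probes (0.055 and 0.091), and with passage 12 arrays alone Pcx differed by 1.06 (adjusted p = 0.057). G6pc showed the same spread, at 0.93, 0.26 and 3.85 on late induced arrays, against -1.54, -3.10 and 0.16 on uninduced arrays. Its difference of 3.18 was not called (adjusted p = 0.07), but it was when replicate numbers were blocked (adjusted p = 0.011), same-numbered arrays being correlated, and with passage 12 arrays alone, at 2.92 (adjusted p = 0.049).

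Genes that could not be tested in late cells were low there. Fbp1 was at -1.56, -4.65 and -1.80 on late induced arrays, 2 of them well above background, against a dim -5.07, -5.02 and -6.0 on uninduced arrays, a rise in means of at least 4.26-fold without a test. Gys2 was at -3.08, -6.94 and 0.79 on late induced arrays, against a dim -5.18, -6.95 and -7.26 on uninduced arrays, at least 3.22-fold by means, where the array of passage 11 stood 3.87 log2 units above the next. Pck1 was dim on every late induced and uninduced array. No glycolytic member was called on late induction: the 13 genes differed by -0.26 to 0.70, with a median of 0.32.

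The difference of the induction effects was then tested in 1 fit of all 21 arrays. Relative to P1, induction had a lower effect in late cells on 13 of 44 members and a higher effect on 2, against 5.21% and 4.73% of the 22353 genes tested. The median member had -0.68 and the median gene 0.01. Late and P1 arrays differ in scanner as well as passage, which cannot be told apart. Each effect was measured within its own scanner, and the scanner's part in the difference of effects was not tested. All values are given as log2 differences of the late effect minus the P1 effect.

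In gluconeogenesis the lower effects were those of Fbp1 (-3.30, adjusted p = 0.0085), Pcx (-2.31, adjusted p = 0.0059) and Pck2 (-1.16, adjusted p = 0.00082). For G6pc, which was not called on late induction, the induced minus uninduced difference was 3.18 in late and 3.19 in P1 cells, and these differed by -0.01 with a standard error of 1.186. In glycogen metabolism they were Gbe1 (-2.16), the gene that the files name Pgm2 (-1.26) and Ugp2 (-1.01). The Gbe1 levels were 1.63, 1.58 and 2.13 on late induced arrays, against 1.29, 1.52 and 1.44 on late uninduced arrays, beside 4.02, 4.01 and 4.40 on P1 induced arrays, against 1.68, 1.51 and 1.69 on P1 uninduced arrays. Without the late arrays of passage 11, Gys2 (-4.21), Pygl (-1.35) and Ldha (-1.03) also passed, Pfkp did not, and the number of lower effects was 15.

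Khk had -1.90 (adjusted p = 0.00036). In glycolysis, Pfkl (-1.73), Pgk1 (-1.50), Pfkp (-1.35), Tpi1 (-1.19) and Pgam1 (-1.16) had lower effects in late cells, and Ldhb a higher one (1.48), with differences of 0.70 in late and -0.78 in P1 cells. The Pgk1 levels were 7.98, 8.03 and 7.97 on late induced arrays, against 7.40, 7.67 and 7.36 on late uninduced arrays. Several of these ended under another setting: Pfkp without the passage 11 arrays (adjusted p = 0.058), Tpi1 with quantile normalization and as the mean of its probes (-0.95 in both), Pgk1 as the mean of its probes (-0.78) and Pgam1 with quantile normalization (-0.85). Ugp2 was at -0.97 with normexp, -0.92 with quantile normalization and from -1.0 (just under 2-fold) to -0.94 when any of 4 arrays was left out. Pdk1 had -1.91, and G6pdx, which fell on P1 induction, 1.26 (adjusted p = 0.029, up to 0.083 when single arrays were left out).

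**Figure D4:**
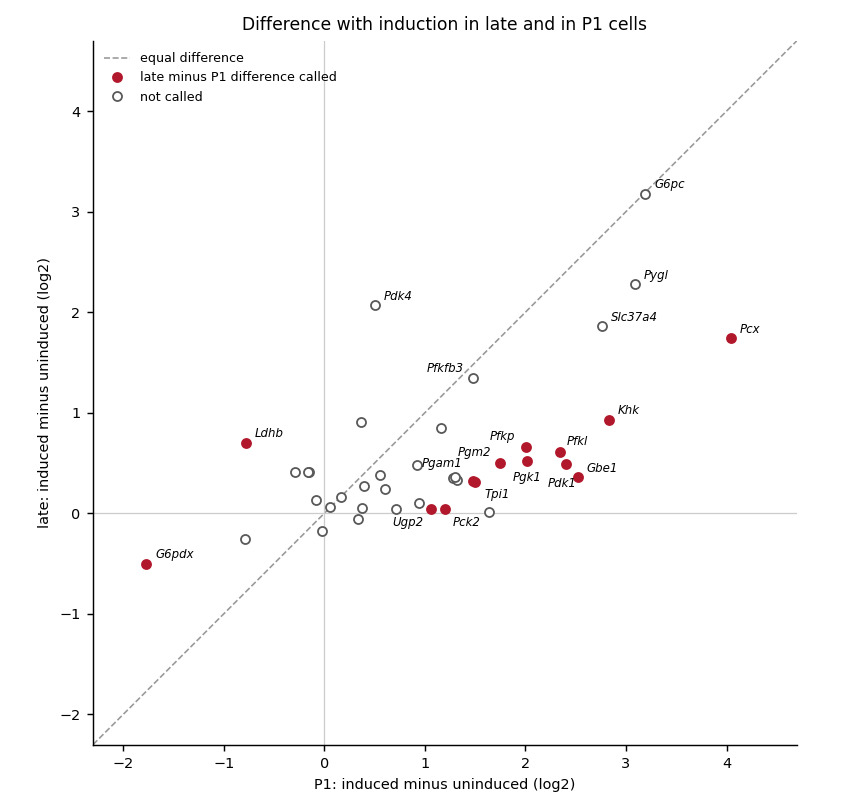
Log2 difference between induced and uninduced cells at late passage (vertical) and at P1 (horizontal) for the 41 members tested in both, each from means of 3 arrays; filled red points have a called difference between the effects, open points do not, and the dashed line marks equal effects. Of the 41 members, 31 lie below the line by any amount, among them G6pc, at 3.18 in late and 3.19 in P1 cells, which appears on it. Pdk4 and Ldhb lie above. The matching count over all genes is not given.

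Before induction, 2 of 44 tested members were higher and 4 lower in late than in P1 CLiPs at day 0, a share of 4.55% and 9.09%. These shares were near the 4.33% and 9.11% of all tested genes. With normexp background correction 1 member was higher and 4 were lower. Pygl was dim on all late day 0 arrays, at -4.86, -5.20 and -4.95, against 1.11, 0.87 and 1.57 on P1 day 0 arrays, at least 62.9-fold lower (adjusted p = 2.4e-08). Fbp1 was at least 3.2-fold lower, Pcx 4.05-fold and Ppp1r3b 2.29-fold. Higher were Pfkfb4, 4.33-fold with the probe shown and by 0.52 on the log2 scale as the mean of its probes, and Eno2, 3.41-fold, or by 0.91 with normexp. The other 38 tested members were not called.

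Compared with fresh hepatocytes, late induced cells had 16 higher and 17 lower members of 44 tested, against 24.7% and 26.6% of all tested genes. Pck1 was at least 5700-fold lower. The log2 differences of Fbp1 (-12.49), Gys2 (-9.23), Pygl (-8.37) and Pcx (-6.84) depended on single late induced arrays, with Fbp1 and Gys2 well above background on 2 of the 3. Without late induced replicate 3, Fbp1 was at -12.92, Gys2 at -11.17, Pygl at -9.07 and Pcx at -7.5. Without late induced replicate 2, Fbp1 was at -11.49, Gys2 at -7.3, Pygl at -7.82 and Pcx at -6.38, and without replicate 1 Fbp1 was at -13.04. Slc2a2 was at -2.60, -3.53 and -0.04 on late induced arrays, against 3.43, 2.95 and 2.81 on fresh arrays, 34.8-fold lower. G6pc was 24.2-fold lower, Khk 16.6-fold, Gbe1 10.2-fold and Ppp1r3c 9.58-fold. Slc37a4 fell by 1.07 on the log2 scale with the probe shown, while the mean of its probes differed by 0.52 and quantile normalization gave -0.38. Pfkp was 174-fold higher, Ldhb 38.3-fold, Pygb 19.0-fold, Pck2 16.8-fold and Gys1 9.49-fold, and Pdk3 at least 17.5-fold. G6pdx was 4.61-fold higher and Slc2a1 3.15-fold. Pdk4 was 4.6-fold higher (adjusted p = 0.014), with overlapping arrays, a difference of 0.74 without fresh replicate 1 and a lost call with the late induced and fresh arrays alone (adjusted p = 0.13).

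Across the 7 groups, the members followed a few patterns. The 10 members Gys1, Pygb, Slc2a1, Ldhb, Pfkfb2, Pfkfb3, Pfkfb4, Pdk3, Pgd and the gene that the files name Pgm1 rose on conversion and were not called on P1 induction, a pair of comparisons with no array in common. In the same pair, 13 members fell on conversion and rose on induction, 6 fell and were not called on induction (Pck1, Ppp1r3b, Ppp1r3c, Slc2a2, Eno3 and Pdk4), and 6, all glycolytic (Gpi1, Pfkl, Tpi1, Pgk1, Pgam1 and Ldha), were not called on conversion and rose on induction. Pck2 and Pfkp rose in both. For Pdk4 and Pfkfb3 the fit shared its estimate of the spread with fresh arrays whose SDs were 2.56 and 2.12. As means of their probes, Tpi1 and Pgk1 were called lower on conversion, at -1.1 and -1.29. Over all tested genes, 25.4% rose and 25.2% fell on conversion, and 9.68% rose on P1 induction. The shares of all genes with both calls are not given, so these counts do not set the members apart from other genes. Among the 13, Pfkfb1 had fallen over 8 days without inducers, and its P1 induced mean, 0.25, did not exceed its day 0 mean, 0.47. The 5 tested members Pfkm, Gapdh, Eno1, Tkt and Taldo1 were called in none of the 9 comparisons with the probe shown. Pfkm lay between 1.36 and 2.11 and Taldo1 between 6.02 and 6.90 over all 21 arrays.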

How the data were processed

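Total RNA was extracted with a microRNeasy kit and labelled in 1 colour from 100 ng with the Low Input Quick Amp kit, per the labels' protocols. The deposited scanner files hold a background-subtracted intensity per spot (the processed signal), made with Agilent Feature Extraction, version 11.5.1.1 for the P1 and fresh groups and version 10.7.3.1 for the late groups, per the file headers. The authors also deposited log2 tables. Those of the 12 fresh and P1 arrays equalled the log2 processed signal scaled to the 75th percentile within 0.1, and those of 12 fresh and late arrays, for 40786 probes, were centred on each probe; both were used as an alternative.

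Here, log2 of the processed signal minus each array's 75th percentile was taken for 56605 probes, averaged over spots of a probe, with control spots left out and 84 genes left out for spots flagged as outliers. Each gene is shown by its brightest probe on average, and 24 members had several probes. Among called member differences with more than 1 measured probe, all probes passed the fold limit on the same side in 40, the sign differed between probes in 6, and in 8 some probe lay under the fold limit. A gene entered a fit if every array of at least 1 group was well above background, and was tested with limma 3.58.1 in R 4.3.3, in separate fits of the 12 fresh and P1 arrays, the 9 late arrays, and all 21 arrays for contrasts across them. Adjusted p-values are Benjamini-Hochberg over all genes of a fit. The procedure was tested on simulated data, tables were read with data.table (version 1.17.8), and promoters and figures were made with pandas 2.3.3 and matplotlib 3.10.9.

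Deviations of same-numbered arrays from their group means correlated at 0.358 to 0.541 between P1 uninduced and P1 day 0, 0.0686 to 0.412 between P1 induced and uninduced, 0.257 to 0.35 between late uninduced and day 0 and 0.475 to 0.645 between late induced and uninduced. The numbers therefore paired all of these except P1 induced and uninduced arrays.

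All members could be named, and up to 4 called genes in each direction from each list of other pathway genes, in order of log2 change. The members and lists were chosen with earlier results of these data known. The number of arrays limits the precision.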

Additional observations from a re-analysis of the deposited data

Results flagged for a closer look

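For 15 members the effect of induction in late cells differed from that in P1 cells by the test of the difference itself, in limma's fit of all 21 arrays. Of 44 tested members 13 had a lower and 2 a higher effect in late cells, against 5.21% and 4.73% of the 22353 genes tested. Late and P1 arrays differ in scanner and extraction software as well as in passage, and these cannot be told apart. The values are log2 differences, late effect minus P1 effect, with the adjusted p. In gluconeogenesis Fbp1 had -3.30 (0.0085), Pcx -2.31 (0.0059) and Pck2 -1.16 (0.00082). In glycogen metabolism Gbe1 had -2.16 (8.9e-06), the gene that the files name Pgm2 -1.26 (3.3e-05) and Ugp2 -1.01 (0.00054). Khk, of fructose metabolism, had -1.90 (0.00036). In glycolysis Pfkl had -1.73 (0.0002), Pgk1 -1.50 (4.1e-05), Pfkp -1.35 (0.018), Tpi1 -1.19 (0.00052), Pgam1 -1.16 (0.00028) and Ldhb 1.48 (0.0022). Pdk1 had -1.91 (2.1e-05) and G6pdx 1.26 (0.029). Not all of these held under other settings. Ugp2 was at -0.97 and -0.92 with normexp and quantile normalization, Tpi1 at -0.95 and Pgam1 at -0.85 with quantile normalization, and Tpi1 at -0.95 and Pgk1 at -0.78 as means of their probes, all under 2-fold. Pfkp (adjusted p = 0.058 with late passage 12 arrays only) and G6pdx (adjusted p = 0.052 without the filter on dim probes) also lost their calls.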

How the results depend on the processing

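Of the member results, 159 were called and 231 were not. Apart from turned signs, a single setting ended at most 10 of those calls. Normexp background correction and the mean of all probes ended 10 each, and quantile normalization 9. In 2 results the sign turned. The P1 induced minus fresh difference of Pdk4, 0.30 as reported, was -1.16 without fresh replicate 1 and lay between that and 1.22 over arrays left out. The late induced minus fresh difference of Slc37a4, called at -1.07 as reported, was 0.52 as the mean of its probes. That setting thereby ended this call as well (adjusted p = 0.078). The cause was not tested. Counts of members that moved by over 1.5 times were these. For P1 uninduced against day 0, with 6 rises and 1 fall as reported, slide 5 alone gave 1 and 0, slide 4 alone 2 falls, and no minimum fold 10 and 7. For P1 induction, with 1 fall as reported, slide 5 alone and no minimum fold gave 2. For late uninduced against late day 0, no minimum fold gave 7 falls in place of 3. For late induction, with 5 rises as reported, no filter on dim probes gave 3 and no minimum fold 14. For late against P1 induction, no filter gave 1 higher effect in place of 2. For late against P1 day 0, with 2 higher and 4 lower as reported, normexp and the mean of all probes gave 1 higher, genes well above background on every array 0 and 2, and no minimum fold 8 and 7. A slide alone can leave 1 array per group, which is then assumed to vary like the other groups.

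Over arrays left out singly, P1 uninduced against day 0 gave 1 to 2 falls, P1 induction 1 to 2 falls, late uninduced against day 0 1 to 3 falls, late induction 3 to 8 rises, and late against P1 induction 12 to 18 lower and 1 to 2 higher effects. The replicate block, with same-numbered arrays paired, called G6pc in late cells (uninduced against day 0 and induced against uninduced, adjusted p = 0.011 in both) and changed no other member call. The median of all genes moved from near 0 to 0.13, 0.12 and 0.19 with quantile normalization and to -0.17, -0.08 and -0.32 with normexp, in P1 day 0, P1 induced and late induced cells relative to fresh, so small differences from fresh cells depend on the scaling. Counts over all genes moved by over 1.5 times in 7 of 18 cases with normexp, 2 of 18 without a filter, 13 of 18 with genes well above background on every array and 17 of 18 without a minimum fold. The setting with passage 12 arrays only was chosen after seeing the data. Members near background, such as Pck1 in most cultured samples, are limited by signal.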
